A study of Homo sapiens with 2 samples.

Results

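The 10 genes described here store, import, export and regulate iron or make and break down heme. They were followed in A549 cells, a human lung adenocarcinoma line. The genes are the ferritin subunits FTH1 and FTL, the transferrin receptor TFRC, the iron transporters SLC11A2 and SLC40A1, and heme oxygenase HMOX1. The others are the iron regulatory protein IREB2, the heme synthesis enzymes ALAD and FECH, and the ferritin cargo receptor NCOA4. All 10 were chosen by gene symbol and were found once each among the 13137 genes of the deposited table. The cells carried a lentiviral shRNA under the doxycycline-inducible H1TetO promoter, directed against SOX2 in one line and scrambled in the other (shRNA-Con). Each line was a polyclonal, puromycin-selected population and was collected after 4 days with doxycycline, which the control cells received too. The data are 1 digital gene expression (DGE) library of each condition, made from 4 µg of total RNA, and DGE counts short sequence tags per gene.

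With 1 library per condition there was no replicate check. For each gene, Fisher's exact test (two-sided) was run on its tags against the remaining gene tags, and p-values were adjusted by Benjamini-Hochberg over the 13137 genes, with a false discovery rate (FDR) of 0.001 as the threshold. This test sets 1 library against the other and not the conditions, and the 95% intervals given (Clopper-Pearson unless named otherwise) cover counting error only. The shRNA-Con library held 2304184 gene tags and the library labelled shRNA-SOX2 held 2093816. The table names its columns SC and S1, of which SC was taken for shRNA-Con by its initials and S1 for the remaining condition. The targeted gene was not lower at the level of tags: SOX2 had 16 tags in shRNA-Con, against 23 in the library labelled shRNA-SOX2 (adjusted p = 0.333, Fisher's exact test), so every direction below belongs to the library as labelled. SOX2 protein is not measured by these data. All 6 epithelial markers were listed, and they differed between the libraries in both directions. KRT8 (7702 and 12729 tags) and KRT19 (35 and 127) were higher past FDR 0.001 in the library labelled shRNA-SOX2, KRT7 (3899 and 1606) and KRT18 (10318 and 7887) were lower, and EPCAM (8 and 4) and CDH1 (50 and 50) did not pass. Their part in the results below was not tested. Of 8 erythroid markers 2 were listed, with 9 and 10 tags in all, and the hemoglobin genes on that list were not analysed here. Of 8 leukocyte, endothelial and fibroblast markers 5 were listed, with 62 and 60 tags in all.

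Cells take up iron bound to transferrin through TFRC, carry it across the endosomal membrane through SLC11A2 (DMT1), store the excess in ferritin shells of heavy (FTH1) and light (FTL) subunits, and export it through ferroportin (SLC40A1). NCOA4 delivers ferritin to lysosomes, where its iron is released. The iron regulatory proteins, IREB2 and ACO1, bind a hairpin called the iron-responsive element. Bound near the start of an mRNA they block its translation, and bound in the 3′ untranslated region (UTR) of TFRC they protect the mRNA from degradation. Heme is made from iron and porphyrin in a pathway that includes ALAD, an early cytosolic step, and FECH, the last mitochondrial step, and HMOX1 opens the heme ring and releases its iron.

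The hairpins below are matches to a strict pattern, found in 4 of the 10 genes. Hairpins of other forms were not searched for. The pattern therefore does not sort the 10 genes by whether an iron regulatory protein can reach them. The search, in transcripts of GENCODE release 29 (GRCh38), asked for an unpaired C, then a stem of 5 base pairs that closes on the hexamer CAGUGN. Only the sense strand was searched, and each element is given 5′ to 3′ as RNA with 6 flanking bases on either side. Capitals mark the unpaired C and the hexamer. FTH1, FTL and SLC40A1 had 1 match each, in exon 1 and in the 5′ UTR. TFRC had 4 matches, all in exon 19, the last, and in its 3′ UTR.
FTH1, chr11:61967574-61967602, minus strand: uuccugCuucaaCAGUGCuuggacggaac
FTL, chr19:48965335-48965363, plus strand: cucuugCuucaaCAGUGUuuggacggaac
SLC40A1, chr2:189580661-189580689, minus strand: caacuuCagcuaCAGUGUuagcuaaguuu
TFRC, chr3:196050979-196051007, minus strand: aauuauCggaagCAGUGCcuuccauaauu
TFRC, chr3:196050575-196050603, minus strand: cauuauCgggagCAGUGUcuuccauaaug
TFRC, chr3:196050510-196050538, minus strand: cuguauCggagaCAGUGAucuccauaugu
TFRC, chr3:196050463-196050491, minus strand: aauuauCgggaaCAGUGUuucccauaauu

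The pattern was found in transcripts of 281 of 19652 coding genes (1.43%), in the 5′ UTR of 31 (0.158%) and in the 3′ UTR of 128 (0.651%). The 4 genes above were the only ones of the 10 with a match, and a missing match says only that these letters are not there. By their listed tags the 4 genes did not share a direction. In the library labelled shRNA-SOX2, FTH1, FTL and TFRC had lower levels and SLC40A1 a higher one. The value of SLC40A1 is uncertain, because another gene was listed with the same tags (below). The ratio of FTL lay close to the median ratio of the genes with at least 20 tags. Among the 17 other listed genes with the pattern in the 5′ UTR 2 were higher and 1 was lower past FDR 0.001, and among the 87 with it in the 3′ UTR 14 were higher and 5 were lower. Of the 82 with it in the coding sequence 10 were higher and 14 were lower. Over all 13137 genes 9.53% were higher and 12.2% were lower.

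Of the 10 genes, 4 were higher past FDR 0.001 in the library labelled shRNA-SOX2 (SLC40A1, ALAD, FECH and HMOX1), 3 were lower (TFRC, FTH1 and FTL), and 3 did not pass (SLC11A2, IREB2 and NCOA4). These counts stand beside 9.53% higher and 12.2% lower of all genes by the same rule. Since deeper genes pass more easily, the same shares were taken over the 7850 genes with at least 57 tags. They were 14.5% and 19.3%. That floor is the fewest tags that any of the 10 had, and most of the 10 were deeper. By depth, 9.80% of genes with 20 to under 100 tags passed in either direction, where 1 of the 10 lay. The shares were 34.9% from 100 to under 1000 tags (6 of the 10), 71.9% from 1000 to under 10000 (1) and 81.6% from 10000 upward (2). When the log2 ratio also had to be 1 or more in size, SLC40A1 and ALAD were higher, against 5.18% of all genes and 7.18% of those with at least 57 tags. TFRC was lower, against 6.77% and 10.2%. The median log2 ratio of the 10 genes was 0.15 (range -1.10 to 2.22), and that of the 10045 genes with at least 20 tags was -0.10.

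**Figure D1:**
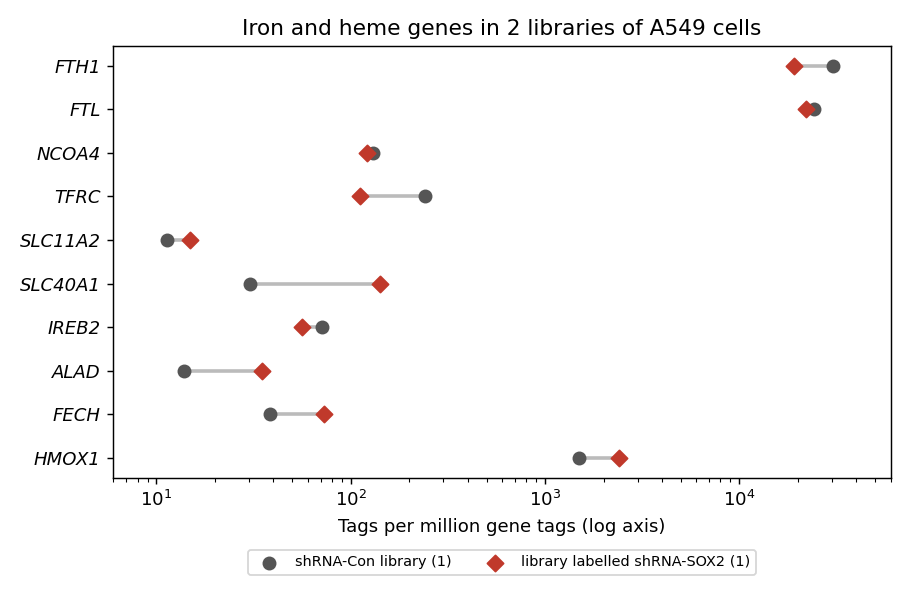
Level of each of the 10 genes in tags per 1000000 gene tags (horizontal log axis), with a grey circle for the shRNA-Con library and a red diamond for the library labelled shRNA-SOX2, 1 library each and so without error bars. SLC40A1 moves from 30.4 to 142 and TFRC from 240 to 112, while FTL and NCOA4 stay close to their control level.

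Ferritin made up a large share of the tags. FTH1 (Entrez Gene ID 2495), the subunit that oxidises iron for storage, had 69683 tags in shRNA-Con, against 39799 in the library labelled shRNA-SOX2. That is 3.02% and 1.90% of all gene tags, a ratio of 0.629 (95% interval 0.621 to 0.636) and a log2 ratio (log2 fold change) of -0.67. Its p in Fisher's exact test was too small for the number format to hold. FTL (2512), the subunit that helps the mineral core form, had 55743 and 46196 tags, or 2.42% and 2.21%. Its ratio was 0.912 (0.901 to 0.923), a log2 ratio of -0.13 (adjusted p = 6.70e-48, Fisher's exact test). With 101939 FTL tags in all, the interval was narrow enough to pass the threshold, but the value lay close to the median of -0.10 over the genes with at least 20 tags, and 48.4% of those genes had a lower log2 ratio. In bulk RNA, fewer cells with a high level and less RNA per cell cannot be told apart.

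Both subunits together held 5.44% of the gene tags in shRNA-Con, against 4.11% in the library labelled shRNA-SOX2. Counted by tags, which are not divided by transcript length, FTH1 ranked 1 among all genes in shRNA-Con, against 3 in the other library, and FTL ranked 2 in each. Of the 38 genes with at least 10000 tags, FTH1 had the fifth lowest fold change, and FTL ranked 14 from the lowest. Such deep genes were mostly called: 31 of the 38 (81.6%) passed, with a median absolute log2 ratio of 0.58. Ferritin has many processed pseudogenes, 27 named after FTH1 and 20 named after FTL in RefSeq, and the way shared tags were assigned is not given in the sources used here. One of them, FTH1P3, was listed with 22 and 7 tags, so the value of FTH1 is uncertain by what such copies may hold.

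The subunits did not move alike. Within a library, FTL had 0.800 tags for each FTH1 tag in shRNA-Con, against 1.16 in the library labelled shRNA-SOX2. This ratio of tags does not depend on how the libraries are scaled, and it was 1.45 times higher (95% exact conditional interval 1.43 to 1.48). NCOA4 (8031), the receptor for the autophagy of ferritin, had 299 and 254 tags, a ratio of 0.935 (0.788 to 1.11; adjusted p = 0.589, Fisher's exact test). Relative to both ferritin subunits NCOA4 was 1.24 times higher (1.04 to 1.47) in the library labelled shRNA-SOX2, from 0.238 to 0.295 tags per 100 ferritin tags.

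The lowest and the highest log2 ratio of the 10 genes belonged to an importer, TFRC, and to the exporter, SLC40A1. TFRC (7037), which internalises transferrin with its iron, had 553 tags in shRNA-Con, against 234 in the library labelled shRNA-SOX2. It was 2.15-fold lower (95% interval 1.84 to 2.51), a log2 ratio of -1.10 (adjusted p = 7.91e-23, Fisher's exact test). SLC40A1 (30061), the only known exporter of iron from cells, had 70 and 297 tags. It was 4.67-fold higher (3.59 to 6.15), a log2 ratio of 2.22 (adjusted p = 1.10e-37, Fisher's exact test), and 98.7% of the genes with at least 20 tags had a lower fold change. Another gene, the tachykinin receptor TACR2, was listed with exactly the same tags, 70 and 297. Of the 927 genes with at least 300 and under 450 tags in all, 44 shared their pair of counts with another gene, but among the 49 genes with at least 300 tags and a log2 ratio of 2 or more in size only SLC40A1 and TACR2 did. Whether the same tags were assigned to both genes cannot be told from the table, so the value of SLC40A1 is uncertain. SLC11A2 (4891), the endosomal and intestinal importer of ferrous iron, had 26 and 31 tags. Its interval ran from 0.754 to 2.30, so that no difference was detectable at this depth (adjusted p = 0.496, Fisher's exact test).

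As with ferritin, the exporter and the receptor can be set against each other within a library. With that limit, there were 12.7 SLC40A1 tags per 100 TFRC tags in shRNA-Con, against 127 in the library labelled shRNA-SOX2, a difference of 7.35-fold to 13.8-fold (95% exact conditional interval). TFRC was lower also relative to ferritin, at 0.617 times its ratio to FTH1 and FTL in shRNA-Con (0.527 to 0.721). The receptor and both ferritin subunits were thus lower in tags, the receptor most of all. FTL, at a log2 ratio of -0.13, lay close to the median of -0.10 over the genes with at least 20 tags. Whether iron regulatory proteins had a part in these values was not tested. Translation, at which the 5′ elements act, was not measured.

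**Figure D2:**
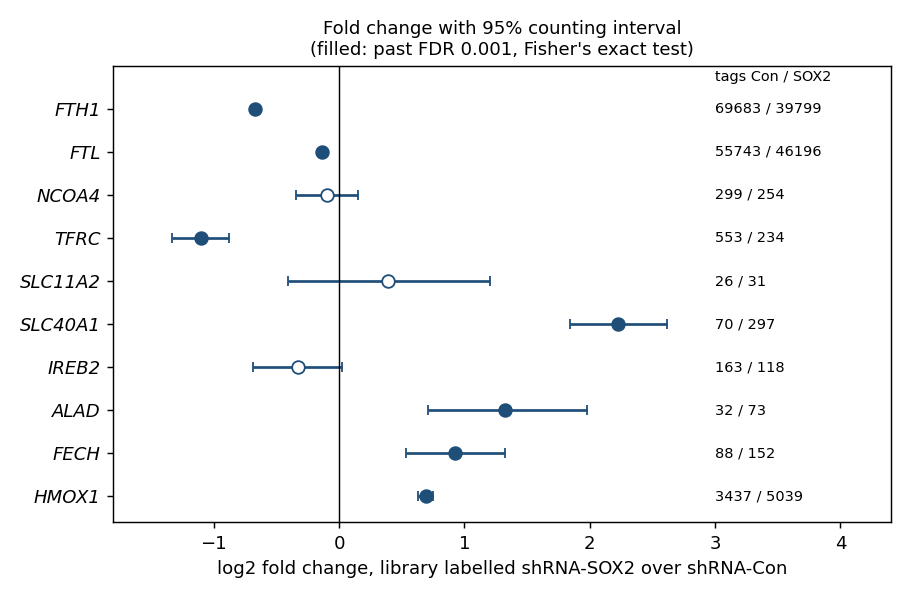
The log2 ratio of each of the 10 genes (horizontal axis, the library labelled shRNA-SOX2 relative to shRNA-Con) with its 95% counting interval as a bar, filled circles marking genes past FDR 0.001 in Fisher's exact test and the tags of both libraries printed at the right. SLC40A1 at 2.22 and TFRC at -1.10 lie farthest apart, and the bars of NCOA4, SLC11A2 and IREB2 cross 0.

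The iron regulatory protein among the 10 did not pass, and its tags were measured but not its protein. IREB2 (3658), an iron regulatory protein that is degraded when iron is plentiful, had 163 tags in shRNA-Con, against 118 in the library labelled shRNA-SOX2, at a ratio of 0.797 (95% interval 0.623 to 1.02; adjusted p = 0.136, Fisher's exact test). The related protein ACO1, an enzyme that binds iron-responsive elements when it lacks its iron-sulfur cluster, had 52 and 135 tags. ACO1 was 2.86-fold higher (2.06 to 4.01; adjusted p = 1.43e-10, Fisher's exact test). FBXL5, the subunit of a ubiquitin ligase that marks IREB2 for degradation, had 70 and 67 tags (adjusted p = 0.881, Fisher's exact test) and is named here after its values were seen.

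The genes of heme breakdown and synthesis among the 10 were all higher. HMOX1 (3162), which degrades heme to biliverdin, carbon monoxide and iron, had 3437 tags in shRNA-Con, against 5039 in the library labelled shRNA-SOX2. It was 1.61-fold higher (95% interval 1.54 to 1.69), a log2 ratio of 0.69 (adjusted p = 9.31e-104, Fisher's exact test). By tags it ranked 78 among all genes in shRNA-Con, against 35 in the other library. ALAD (210), which joins precursors into porphobilinogen, had 32 and 73 tags, a ratio of 2.51 (1.64 to 3.93; adjusted p = 4.94e-05, Fisher's exact test). FECH (2235), which inserts iron into protoporphyrin, had 88 and 152 tags, a ratio of 1.90 (1.45 to 2.50; adjusted p = 7.58e-06, Fisher's exact test). The ratio of FECH to ALAD tags in the library labelled shRNA-SOX2 was 0.758 times that in shRNA-Con, with an interval of 0.447 to 1.27 that includes no difference.

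HMOX1 and ferritin, which take up successive steps in the handling of heme iron, went apart. On the ferritin side this was mainly FTH1 (ratio 0.629), while FTL (0.912) lay close to the median over the genes with at least 20 tags. There were 2.74 HMOX1 tags per 100 tags of FTH1 and FTL in shRNA-Con, against 5.86 in the library labelled shRNA-SOX2, which is 2.14 times higher (95% exact conditional interval 2.05 to 2.24). BACH1, a heme-sensing repressor of HMOX1 and ferritin genes, had 29 tags in shRNA-Con, against 4 in the library labelled shRNA-SOX2. Its ratio was 0.152 (0.0388 to 0.432; adjusted p = 0.000156, Fisher's exact test), and it rests on few tags. HMOX2, the constitutive heme oxygenase, had 79 and 83 tags (adjusted p = 0.533, Fisher's exact test).

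Beside the 10 genes, 80 other genes of iron and heme biology were listed by function, of which 71 were in the table and 9 were not analysed here. Of the 71, 6 were higher past FDR 0.001 (8.45%) and 14 were lower (19.7%), beside 9.53% and 12.2% of all genes. Among all genes with at least 57 tags, which not all of the 71 had, the shares were 14.5% and 19.3%. Their median log2 ratio, over the 63 with at least 20 tags, was 0.02. The split depended on the scaling, with 12 lower and 9 higher under edgeR's TMM factors and 16 lower and 4 higher under clean tags of the whole library. The split over all genes moved the same way. Of the calls, 70.0% were lower for these genes, against 56.1% for all genes. Those shares were 57.1% and 49.4% under TMM factors, and 80.0% and 66.6% under clean tags. These lists overlap in function with the 10 genes, and their counts are descriptions.

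Other genes of heme synthesis were called in both directions. Of 11 listed genes 3 were lower, 1 was higher and 7 did not pass. Over all genes 12.2% were lower and 9.53% were higher, or 19.3% and 14.5% of those with at least 57 tags. UROS, a later enzyme of the pathway than ALAD, had 178 tags in shRNA-Con, against 77 in the library labelled shRNA-SOX2, at a ratio of 0.476. TMEM14C, a mitochondrial importer of porphyrins, had 460 and 273 tags (0.653). ABCB6, a porphyrin transporter, was higher with 149 and 216 tags (1.60). Adjusted p-values of these 3 genes lay between 1.58e-07 for TMEM14C and 6.05e-05 for ABCB6 in Fisher's exact test. ALAS1, the rate-limiting enzyme in cells other than erythroid ones, had 96 and 76 tags and did not pass (adjusted p = 0.549, Fisher's exact test). ALAD and UROS thus differed in opposite directions within the pathway.

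Among uptake, export and storage genes, 2 of 14 were higher and 2 were lower. For the lists in this paragraph, the shares over all genes were 9.53% higher and 12.2% lower. Of genes with at least 57 tags they were 14.5% and 19.3%. CYBRD1, a ferric reductase, had 65 tags in shRNA-Con, against 175 in the library labelled shRNA-SOX2, at a log2 ratio of 1.57. STEAP3, the endosomal ferric reductase that works with TFRC, had 85 and 136 (0.82), whereas the related STEAP2 had 110 and 51 (-0.97). SLC39A14 (ZIP14), an importer of iron that is not bound to transferrin, had 486 and 142 tags, a log2 ratio of -1.64 (adjusted p = 1.85e-36, Fisher's exact test). The related importer SLC39A8 had 107 and 111 tags (adjusted p = 0.486, Fisher's exact test), so that of the importers TFRC, SLC11A2, SLC39A14 and SLC39A8 the first and SLC39A14 were lower and the others did not pass. Among regulators and chaperones, 1 of 6 was higher (ACO1, above) and 1 was lower. The latter was PCBP1, a chaperone that delivers iron to ferritin, with 523 and 336 tags and a log2 ratio of -0.50. Its relative PCBP2 had 2107 and 1955 tags (adjusted p = 0.638, Fisher's exact test). Among 12 genes of heme breakdown, transport and sensing 2 were lower and 0 were higher. HEBP1, a heme-binding protein, had 135 and 37 tags, a log2 ratio of -1.73, and the other was BACH1.

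Most iron-sulfur cluster genes did not pass the test, and a few differed strongly. In the mitochondrial list 3 of 18 genes were lower and 1 was higher. FDXR, the reductase that supplies electrons to ferredoxin, had 324 tags in shRNA-Con, against 1464 in the library labelled shRNA-SOX2, at a ratio of 4.97 (95% interval 4.41 to 5.63; adjusted p = 5.16e-195, Fisher's exact test). HSPA9 (mortalin), a mitochondrial chaperone that also folds many other imported proteins, had 1981 and 510 tags, a ratio of 0.283 (0.257 to 0.312). BOLA3 and ISCA2, which act late in assembly, had 243 and 141 tags and 212 and 124 tags. The scaffold ISCU had 362 and 421 tags and did not pass (adjusted p = 0.00243, Fisher's exact test). In the cytosolic list 3 of 10 genes were lower and 1 was higher. Both lists stand beside 12.2% lower and 9.53% higher of all genes, or 19.3% and 14.5% of those with at least 57 tags. The lower cytosolic ones were NDOR1 (91 and 35 tags), CIAO2B (431 and 204) and CIAPIN1 (154 and 83). CIAO2A, which is known to mature ACO1, was higher with 264 and 351 tags and a log2 ratio of 0.55.

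**Figure D3:**
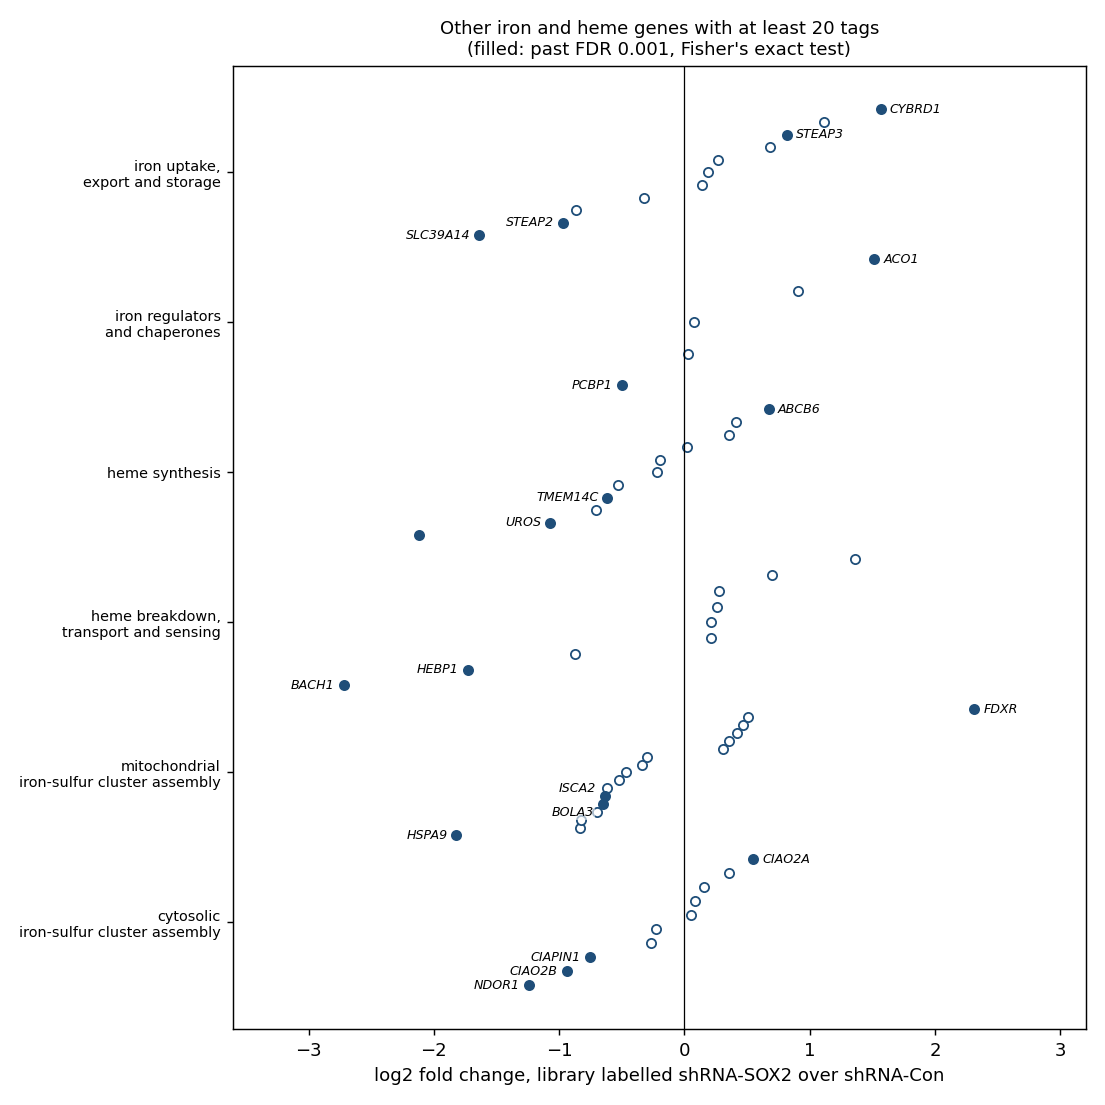
Log2 ratio (horizontal axis, the library labelled shRNA-SOX2 relative to shRNA-Con) of the 63 other iron and heme genes with at least 20 tags, 1 circle per gene, in 6 functional lists (rows), spread vertically within a list only for legibility. Filled circles, named where the text describes the gene, are past FDR 0.001 in Fisher's exact test, and they lie on either side of 0 in every list but that of heme breakdown, transport and sensing, where HEBP1 and BACH1 are both lower.

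The Gene Ontology terms in the deposited table gave further sets of genes, and the terms were chosen after the files were seen. With the 10 genes left out, 143 genes were annotated with iron ion binding, of which 15 were higher and 15 were lower (10.5% each). Of 61 genes annotated with heme binding 10 were higher and 6 were lower, and of 42 with iron-sulfur cluster binding 6 were higher and 5 were lower. Their median log2 ratios were -0.04, 0.12 and -0.07, beside -0.10 for all genes with at least 20 tags. Of 15 genes annotated with iron ion transport 1 was higher and 4 were lower, whereas of 15 with cellular iron ion homeostasis 3 were higher and 1 was lower. Of 11 with heme biosynthetic process 0 were higher and 2 were lower. The shares over all genes were 9.53% higher and 12.2% lower.

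How far the 7 calls reach depends on the spread between cultures, which a single pair of libraries does not show. If cultures are taken to vary with a coefficient of variation of 0.2, edgeR's exact test kept SLC40A1, the gene whose tags equal those of TACR2, alone past FDR 0.001 (adjusted p = 0.000272), while the other 6 had adjusted p-values from 0.108 for TFRC to 0.926 for FTL. The scaling moved no call among the 10 genes, and the 5 genes above 0 and the 5 below 0 kept their signs under gene tags, TMM factors, the median ratio and clean tags. Clean tags, which lower the median of all genes by 0.11 on the log2 scale against gene tags, gave FTH1 -0.78, FTL -0.25, TFRC -1.22, SLC40A1 2.11 and HMOX1 0.58.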

How the data were processed

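The authors made tag counts per Entrez Gene ID by digital gene expression (DGE, run by BGI). The deposited values are raw counts. Aligner, counter and annotation are not given in the sources used here. The submitters' processing notes name hg19. The TPM values, also deposited by the authors, are tags per 1000000 clean tags of the whole library, with 0 written as 0.01. Clean tags were derived from counts and TPM (3516266 for shRNA-Con and 3456234 for shRNA-SOX2, of which 65.5% and 60.6% lay on listed genes). The deposited columns of log2 ratios, p-values and FDR compare the libraries and were not used.

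Fold changes were computed here on gene tags, with counts below 3 set to 3. Genes entered a median from 20 tags upward, summed over both libraries. Fisher's exact test and Benjamini-Hochberg adjustment ran over all genes. The scripts were tested on simulated data. Pairs of genes were compared by conditional odds ratios with exact intervals and no p. List genes were matched by Entrez Gene ID through RefSeq. Rows without a symbol held 0.0535% and 0.0372% of the gene tags and stayed in the totals. Sequences and their GRCh38 positions came from GENCODE release 29. The genes named were the 10, SOX2, and list genes past FDR 0.001 whose log2 ratio was 0.5 or more in size, of which 1 is counted but not reported here by name. ALAS1, FBXL5, HMOX2, ISCU, PCBP2, SLC39A8, TACR2, FTH1P3 and the markers were named after their values were seen, and so were the Gene Ontology terms. The 10 genes and the lists were chosen with earlier results of these data known. Alternatives were TMM factors, the median ratio, clean tags, at least 10 tags, edgeR's exact test with an assumed coefficient of variation, FDR 0.05 and a minimum fold change. Python 3.11.15, scipy 1.17.1, R 4.3.3, edgeR 4.0.16 and DESeq2 1.42.0 were used.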

Additional observations from a re-analysis of the deposited data

How the results depend on the processing

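No paired analysis was possible because there was 1 library per condition, so leaving one out was impossible too. For the 10 genes, 3 lower and 4 higher calls stood under TMM factors, the median ratio, clean tags, at least 10 tags and FDR 0.05, and with ferritin tags left out of the totals, an alternative chosen after seeing the data.

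An assumed coefficient of variation of 0.1 in edgeR's exact test left 1 lower (TFRC) and 1 higher (SLC40A1) of the 10 genes, 5 lower and 3 higher of the other iron and heme genes, and 654 lower and 512 higher of all genes. With 0.2 these were 0 and 1, 0 and 1, and 48 and 65. With 0.4 all were 0, with 1 of the 10 genes, 4 of the other iron and heme genes and 627 of all genes at an unadjusted p under 0.05. Requiring a log2 ratio of 1 or more in size left 1 lower and 2 higher of the 10, 7 and 3 of the others, and 889 and 681 of all genes. With FDR 0.05, 19 of the other iron and heme genes were lower and 11 higher, and 2754 of all genes were lower and 2148 higher. These changes follow from the assumed spread or the stricter or looser rule. Of all calls 56.1% were lower, beside 49.4% under TMM factors, 49.7% under the median ratio and 66.6% under clean tags. Of the 10 genes SLC11A2 had the fewest tags, 57 in all.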
